A study of Mus musculus with 8 samples.

Results

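A set of 10 NF-kB pathway genes was followed in islet RNA from female NOD mice given PAHSA or vehicle. They were the subunit genes Nfkb1, Nfkb2, Rela and Relb, the inhibitor genes Nfkbia, Nfkbib and Nfkbie, the feedback genes Tnfaip3 and Tnip1, and the kinase gene Ikbkb. They were taken from a list of names, and 10 of 10 were among the 13725 genes of the deposited table. All 10 were also among the 12231 genes tested, which had a mean above 0 on the log2 CPM scale (counts scaled to the size of the library) over the 8 libraries.

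Of the 8 libraries, 4 came from mice treated with PAHSA, a lipid of the fatty acid ester kind whose name some labels spell PASHA, and 4 from mice given vehicle. All mice were NOD, a strain that develops autoimmune diabetes, and were 10 weeks old. The labels name neither dose, route nor length of treatment. The series' design counts 4 mice per group, whereas the extraction protocol describes sets of islets pooled from 2 mice, so a library may hold islets of 1 mouse or of several, and the p-values measure only the spread between libraries, which may be technical. The PAHSA libraries are numbered 1 to 4, the vehicle libraries 1, 3, 4 and 5. By its title the study concerns cell senescence, beta cell stress and Mdm2/p53.

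NF-kB transcription factors are dimers of Rel-family proteins that IkB proteins hold in the cytoplasm. When receptors for cytokines or microbial products signal, the IKK complex phosphorylates the IkB proteins, which are then degraded, and the freed dimers enter the nucleus. Several of the genes they switch on, Nfkbia and Tnfaip3 among them, encode inhibitors that shut the pathway down again, so that their transcripts are often read as a sign of NF-kB activity. In pancreatic islets the pathway is known for its response to inflammatory cytokines such as interleukin-1.

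The promoters of the feedback genes are shown because a kappa-B motif, the DNA sequence that NF-kB dimers recognise, lies close to their start sites. RefSeq promoter windows (GRCm38.p6, 250 bases before to 50 after a start) were matched by symbol for 7 of the 10 genes, in 10 windows. Nfkb1, Relb and Ikbkb were not matched. The kappa-B consensus was found on either strand in 7 of the 10 windows and in 5 of the 7 genes, against 4.51% of all 32851 windows and 5.14% of all 27025 genes in the table. The windows of Rela and Nfkbib and 1 of 2 windows of Tnfaip3 held no match. Overlapping windows of Nfkb2 share a site, which counts in each of them. Below are the 150 bases before 1 start site of each of the 5 genes, 5′ to 3′ in the direction of the gene, with every base that a consensus match covers in capitals.
Nfkbia, chr12:55492648-55492797, minus strand: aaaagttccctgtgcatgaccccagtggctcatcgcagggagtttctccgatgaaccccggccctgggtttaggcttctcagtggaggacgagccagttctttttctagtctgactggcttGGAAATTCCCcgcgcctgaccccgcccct
Tnfaip3, chr10:19015411-19015560, minus strand: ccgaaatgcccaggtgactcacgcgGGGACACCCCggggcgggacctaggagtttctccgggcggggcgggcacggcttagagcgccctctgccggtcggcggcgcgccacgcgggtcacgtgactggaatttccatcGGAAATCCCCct
Tnip1, chr11:54962941-54963090, minus strand: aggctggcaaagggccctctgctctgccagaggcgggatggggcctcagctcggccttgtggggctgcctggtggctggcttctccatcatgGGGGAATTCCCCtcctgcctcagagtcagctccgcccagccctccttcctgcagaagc
Nfkbie, chr17:45555550-45555699, plus strand: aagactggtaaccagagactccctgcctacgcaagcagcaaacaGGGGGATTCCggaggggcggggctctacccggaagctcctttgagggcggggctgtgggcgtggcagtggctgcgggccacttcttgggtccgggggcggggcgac
Nfkb2, chr19:46304587-46304736, plus strand: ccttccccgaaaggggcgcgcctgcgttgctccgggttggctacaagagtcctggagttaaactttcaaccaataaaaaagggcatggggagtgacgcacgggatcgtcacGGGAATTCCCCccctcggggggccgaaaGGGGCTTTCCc
The match of Nfkbia begins 29 bases before its start and reads GGGAATTTCC on the other strand. Tnfaip3 has a match that begins 12 bases before the start and another at 125. In Tnip1 overlapping matches on both strands form 1 run of 12 bases that begins 58 bases before the start. The match of Nfkbie begins 106 bases before its start. Nfkb2 has a run of 11 bases at 39 and a match at 11 bases before this start, and its other windows hold the site GGGACTTTCC at chr19:46305705-46305714. A match describes the letters in the window and does not show that a factor was bound there.

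None of the 10 genes passed the test across all genes, and in none did the 4 PAHSA libraries lie apart from the 4 vehicle libraries. In limma, 0 of the 10 passed an adjusted p of 0.05, as did 0 of all 12231 genes tested (0.0%), with a smallest adjusted p of 0.761 among the 10 and 0.671 over all genes. At an unadjusted p under 0.05 the count was 0 of 10, against 7.31% of all genes tested (894 genes). Non-overlapping groups were found for 0 of 10, against 4.01% of all genes (1.95% with PAHSA lower and 2.06% with PAHSA higher). Of the 10 differences, 8 were negative and 2 positive, whereas 50.9% of all genes had a negative and 49.1% a positive difference. The median difference of the 10 was -0.19 on the log2 scale, against -0.01 over all genes. In bulk RNA such as this, fewer cells of a type and less RNA per cell cannot be told apart.

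The 95% confidence intervals limit how large a difference these libraries could hide. For 8 of the 10 genes the interval lay within a log2 difference of -1 to 1, which is a 2-fold change either way, and this was so for 63.8% of all genes tested. The intervals of Nfkbie and Tnfaip3 reached below -1, and none reached above 1. Estimated counts of these genes lay between 129 (Tnfaip3 in PAHSA replicate 2) and 4156 (Nfkbia in vehicle replicate 3) per library.

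**Figure D1:**
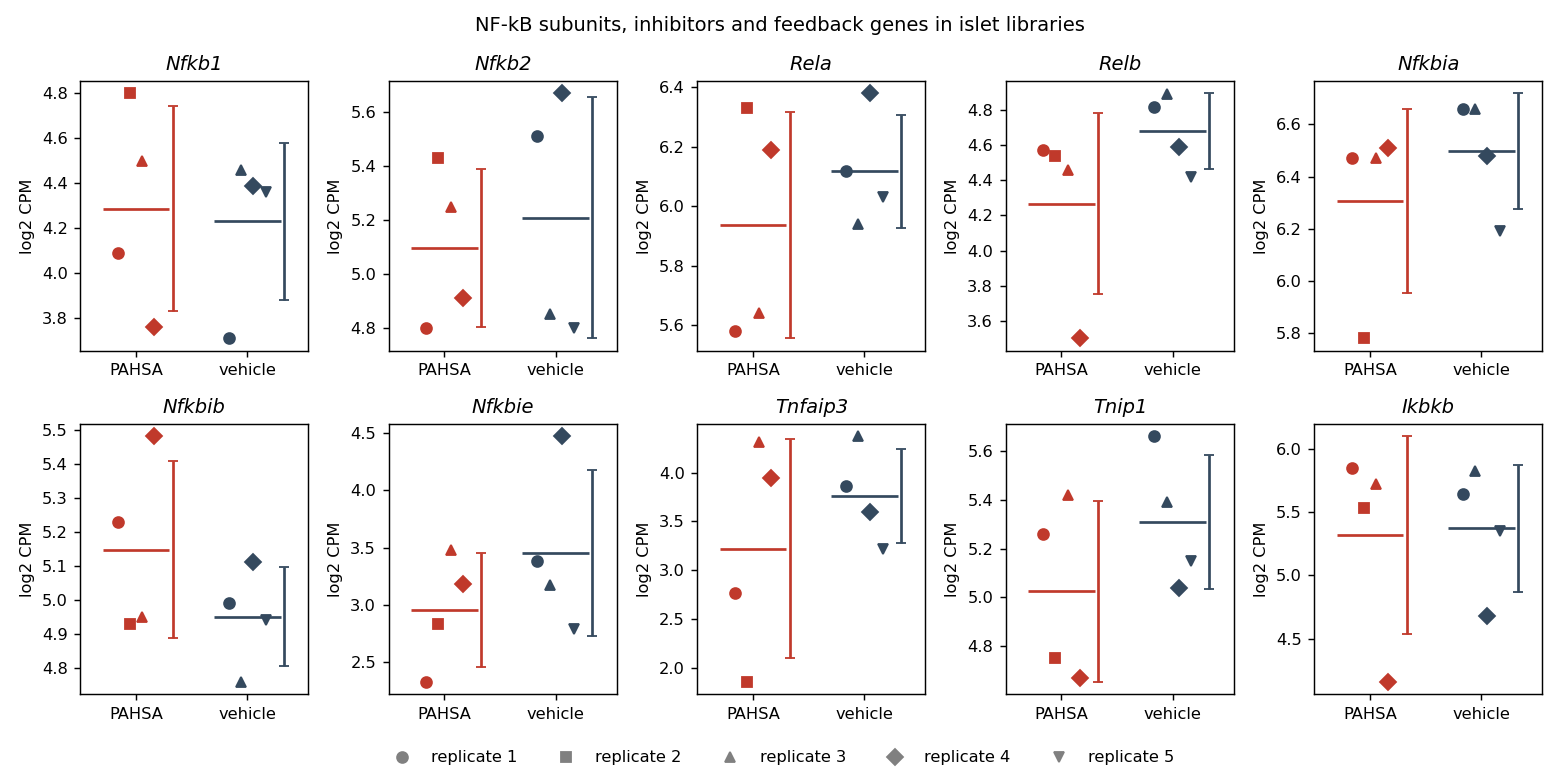
Log2 CPM of the 10 genes in each library, with PAHSA in red and vehicle in dark blue; symbols give the replicate number, horizontal lines the group mean and bars the SD (n = 4 each). In every panel the groups overlap, and single PAHSA libraries stand low for Relb (3.50), Nfkbia (5.78) and Ikbkb (4.16). For Tnfaip3 PAHSA replicates 1 (2.77) and 2 (1.86) stand low, and for Nfkb1 vehicle replicate 1 (3.71).

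Among the subunits, Rela encodes p65, the activating subunit of the classical dimer. It had 5.58, 6.33, 5.64 and 6.19 log2 CPM in PAHSA replicates 1 to 4, against 6.12, 5.94, 6.38 and 6.03 log2 CPM in vehicle replicates 1, 3, 4 and 5. PAHSA replicates 1 and 3 were below every vehicle library and the other two PAHSA libraries were within the vehicle range. The difference was -0.18 (SE 0.19, 95% confidence interval -0.61 to 0.24, limma adjusted p = 0.867).

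Nfkb1 encodes p105, the precursor of the p50 subunit that pairs with p65. Its level was 4.09, 4.80, 4.50 and 3.76 log2 CPM in PAHSA replicates 1 to 4, against 3.71, 4.46, 4.39 and 4.36 log2 CPM in vehicle replicates 1, 3, 4 and 5. The lowest library of all was vehicle replicate 1 and the highest PAHSA replicate 2, so the PAHSA values ran from within the vehicle range to above it. Nfkb1 differed by 0.06 (SE 0.28, interval -0.56 to 0.68), and the sign turned without vehicle replicate 1 (-0.11), PAHSA replicate 2 (-0.11) or PAHSA replicate 3 (-0.01).

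Relb and Nfkb2 encode the partners of the alternative pathway, RelB and the p100 precursor of p52. Relb had 4.57, 4.54, 4.46 and 3.50 log2 CPM in PAHSA replicates 1 to 4, against 4.82, 4.89, 4.59 and 4.42 log2 CPM in vehicle replicates 1, 3, 4 and 5. All 4 PAHSA libraries were below the vehicle mean of 4.68, but 3 of them were still above vehicle replicate 5. Relb had the smallest p of the 10 genes, with a difference of -0.41 (SE 0.27, interval -1.0 to 0.18, limma adjusted p = 0.761), which is a ratio of 0.753. Without PAHSA replicate 4 the difference was -0.15. Nfkb2 had 4.80, 5.43, 5.25 and 4.91 log2 CPM in PAHSA replicates 1 to 4, against 5.51, 4.85, 5.67 and 4.80 log2 CPM in vehicle replicates 1, 3, 4 and 5. The PAHSA values all lay inside the vehicle range to 2 decimals, and the difference was -0.11 (SE 0.24, interval -0.65 to 0.42).

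The inhibitor gene Nfkbia encodes IkB-alpha, the classical NF-kB target that binds p65 and returns it to the cytoplasm. It had 6.47, 5.78, 6.47 and 6.51 log2 CPM in PAHSA replicates 1 to 4, against 6.66, 6.66, 6.48 and 6.19 log2 CPM in vehicle replicates 1, 3, 4 and 5. PAHSA replicates 1, 3 and 4 were nearly equal and inside the vehicle range, and PAHSA replicate 2 was the lowest of the 8 libraries. The difference was -0.19 (SE 0.18, interval -0.60 to 0.22, limma adjusted p = 0.850), and -0.01 without PAHSA replicate 2.

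Nfkbib encodes IkB-beta, an inhibitor that recovers slowly after a signal. It had 5.23, 4.93, 4.95 and 5.48 log2 CPM in PAHSA replicates 1 to 4, against 4.99, 4.76, 5.11 and 4.94 log2 CPM in vehicle replicates 1, 3, 4 and 5. Of the PAHSA libraries 2 were above every vehicle library and the other two were inside the vehicle range. Nfkbib had the highest positive difference of the 10 genes, 0.19 (SE 0.18, interval -0.20 to 0.59), which was 0.08 without PAHSA replicate 4.

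Nfkbie encodes IkB-epsilon, a further inhibitor that NF-kB itself induces. Its level was 2.33, 2.83, 3.48 and 3.18 log2 CPM in PAHSA replicates 1 to 4, against 3.38, 3.17, 4.47 and 2.79 log2 CPM in vehicle replicates 1, 3, 4 and 5. Vehicle replicate 4 was more than 1 log2 unit above any other vehicle library. The difference of -0.50 (SE 0.41, interval -1.41 to 0.42) was -0.16 without that library.

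Of the feedback genes, Tnfaip3 encodes A20, an ubiquitin-editing enzyme that switches off the signal upstream of the kinases. It had 2.77, 1.86, 4.31 and 3.94 log2 CPM in PAHSA replicates 1 to 4, against 3.86, 4.37, 3.60 and 3.22 log2 CPM in vehicle replicates 1, 3, 4 and 5. The PAHSA libraries split, with replicates 1 and 2 below every vehicle library and replicates 3 and 4 inside the vehicle range. Tnfaip3 had the largest negative difference and the widest interval of the 10, -0.54 (SE 0.51, interval -1.67 to 0.59, limma adjusted p = 0.847), with -0.09 without PAHSA replicate 2 and -0.90 without PAHSA replicate 3. Its SD over the 8 libraries, 0.85 on the log2 scale, was larger than that of 86.8% of all genes tested, where the median SD was 0.36.

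Tnip1 encodes ABIN1, a ubiquitin-binding protein that helps A20. It had 5.26, 4.75, 5.42 and 4.67 log2 CPM in PAHSA replicates 1 to 4, against 5.66, 5.39, 5.04 and 5.15 log2 CPM in vehicle replicates 1, 3, 4 and 5. PAHSA replicates 2 and 4 were below every vehicle library and PAHSA replicates 1 and 3 within the vehicle range, for a difference of -0.28 (SE 0.22, interval -0.77 to 0.20). It was -0.17 without PAHSA replicate 4 and also without vehicle replicate 1.

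Ikbkb encodes IKK-beta, the kinase that marks IkB-alpha for degradation. Its level was 5.85, 5.53, 5.72 and 4.16 log2 CPM in PAHSA replicates 1 to 4, against 5.64, 5.82, 4.68 and 5.35 log2 CPM in vehicle replicates 1, 3, 4 and 5. The library numbered 4 was the lowest in each group. Ikbkb differed by -0.06 (SE 0.37, interval -0.88 to 0.76), and the sign turned without PAHSA replicate 4 (0.33), vehicle replicate 1 (0.03) or vehicle replicate 3 (0.09).

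No single library was the lowest throughout. PAHSA replicate 4 was the lowest of the 8 libraries for Relb, Tnip1 and Ikbkb, PAHSA replicate 2 for Nfkbia and Tnfaip3, and PAHSA replicate 1 for Rela and Nfkbie. PAHSA replicate 4 was also the highest library for Nfkbib, PAHSA replicate 2 for Nfkb1 and PAHSA replicate 1 for Ikbkb. PAHSA replicate 3 was neither the lowest nor the highest for any of the 10, and 7 of 10 genes were above their own mean there. Among the vehicle libraries, 8 of 10 genes were above their own mean in replicates 1 and 4, 6 in replicate 3 and 3 in replicate 5.

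**Figure D2:**
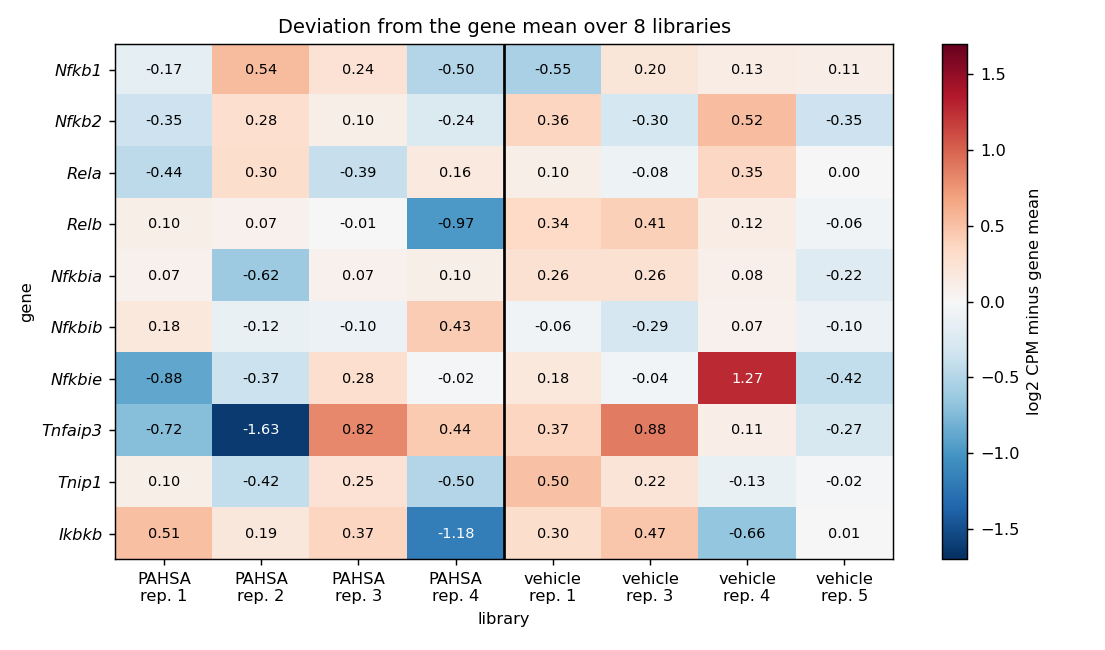
Deviation of each gene (rows) from its mean over the 8 libraries, in log2 CPM, with the 4 PAHSA libraries left of the line and the 4 vehicle libraries right of it. The strongest deviations are those of Tnfaip3 in PAHSA replicate 2 (-1.63), Nfkbie in vehicle replicate 4 (1.27), Ikbkb in PAHSA replicate 4 (-1.18) and Relb in PAHSA replicate 4 (-0.97).

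The balance between an inhibitor or inducible gene and a subunit was read as a log2 ratio within each library, as a description. Nfkbia over Rela was 0.89, -0.55, 0.84 and 0.32 in PAHSA replicates 1 to 4, against 0.53, 0.72, 0.10 and 0.16 in vehicle replicates 1, 3, 4 and 5. The means were 0.37 ± 0.67 in PAHSA and 0.38 ± 0.30 in vehicle (SD, n = 4 each), with PAHSA replicate 2 the only library in which the ratio was below 0. Relb over Rela averaged -1.66 ± 0.76 in PAHSA and -1.44 ± 0.32 in vehicle, and Tnfaip3 over Rela -2.71 ± 1.32 in PAHSA and -2.36 ± 0.58 in vehicle. Nfkb2 over Nfkb1 averaged 0.81 ± 0.23 in PAHSA and 0.98 ± 0.68 in vehicle. In all 4 ratios the difference of the means was smaller than either SD.

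Levels of different genes were compared as CPM per kilobase of the longest annotated coding transcript, which makes them comparable per length. Nfkbia was the highest of the 10, at 51.2 ± 10.9 CPM per kilobase in PAHSA and 57.7 ± 8.46 in vehicle (SD, n = 4 each). Rela followed at 23.1 ± 6.03 in PAHSA and 25.7 ± 3.49 in vehicle, and the ranges of these top genes over the 8 libraries, 34.9 to 64.1 and 17.7 to 30.6, did not overlap. Below them came Nfkbib with a mean of 16.2 over the 8 libraries, Tnip1 with 12.4, Ikbkb with 10.9, Relb with 10.4 and Nfkb2 with 9.50. Nfkb1 (4.79), Nfkbie (4.16) and Tnfaip3 (2.89) were the lowest. The range of Nfkb2, 7.23 to 13.3, also lay above that of Nfkb1, 3.18 to 6.78. All other neighbours in this order had overlapping ranges over the 8 libraries, and their difference within a library was not tested. With the shortest coding transcript as the length, Nfkbib was at 26.9 and stood above Rela at 24.4. Nfkb2 was then at 12.3 and stood above Ikbkb at 12.1 and Relb at 10.4.

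**Figure D3:**
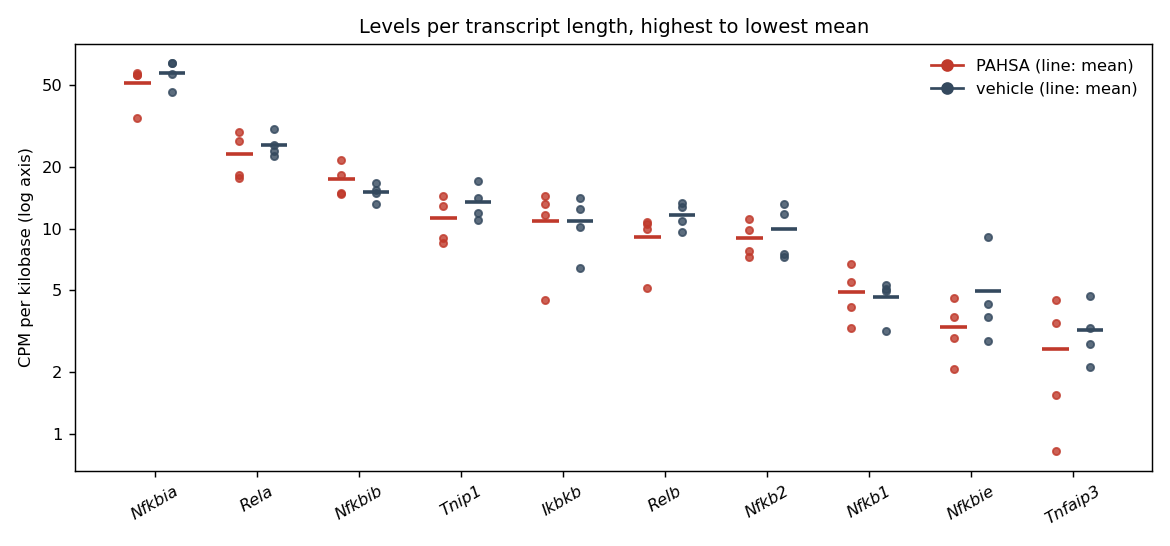
CPM per kilobase of the longest annotated coding transcript (log axis) for the 10 genes, ordered by their mean over the 8 libraries; points are libraries, lines group means, PAHSA in red and vehicle in dark blue. Nfkbia stands above all others in both groups, and in each gene the PAHSA and vehicle points overlap.

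Positions of the genes are given in GRCm38 from GENCODE M21, not from the authors' build. Nfkbia (ENSMUSG00000021025) lies on chr12:55489410-55492647, Tnfaip3 (ENSMUSG00000019850) on chr10:19000910-19015657 and Relb (ENSMUSG00000002983) on chr7:19606217-19629438, all on the minus strand. Nfkb2 (ENSMUSG00000025225, chr19:46304320-46312385) shares 531 exon bases, 11.6% of its own, with AC114539.1 and 299, or 6.52%, with Psd, both on the opposite strand. Nfkbib (ENSMUSG00000030595, chr7:28758251-28767512) shares 314, or 14.5%, with Ccer2 and 42, or 1.94%, with Sirt2, also on the opposite strand. The library kit does not mark strand, so values of these 2 genes are less certain there.

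Around the 10 genes, 4 lists held other parts of the pathway, and 0 of their genes passed an adjusted p of 0.05 in limma in either direction. The other subunits, inhibitors and kinases had 11 negative and 5 positive differences among 16 tested genes (17 listed), with a median of -0.16, 1 of them positive and 0 negative at an unadjusted p under 0.05, where all genes had 3.02% positive and 4.29% negative. The positive one was Ikbkg, which encodes NEMO, the scaffold of the IKK complex. Ikbkg had 6.25, 5.77, 6.34 and 5.56 log2 CPM in PAHSA replicates 1 to 4, against 5.87, 5.41, 5.13 and 5.40 log2 CPM in vehicle replicates 1, 3, 4 and 5, a difference of 0.52 (SE 0.22, limma adjusted p = 0.671). All 4 PAHSA libraries were above the vehicle mean of 5.45, and 2 of them were below vehicle replicate 1. The log2 difference of Ikbkg was 0.15 (SE 0.15) with the macrophage marker mean as a covariate, and its unadjusted limma p was also above 0.05 with the stellate mean (0.0807), without the variance trend (0.0578) and without PAHSA replicate 1 (0.0934).

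Chuk, which encodes the partner kinase IKK-alpha, had 6.2, 6.21, 6.37 and 6.4 log2 CPM in PAHSA replicates 1 to 4, against 6.43, 6.97, 6.50 and 6.49 log2 CPM in vehicle replicates 1, 3, 4 and 5. Its groups did not overlap, which was so for 1.95% of all genes with PAHSA lower. The difference was -0.30 (SE 0.14, limma adjusted p = 0.687), and -0.18 without vehicle replicate 3. The kinase gene Map3k14, which encodes NIK of the alternative pathway, had 3.43, 2.54, 0.95 and 0.12 log2 CPM in PAHSA replicates 1 to 4, against 2.41, 3.12, 3.28 and 2.76 log2 CPM in vehicle replicates 1, 3, 4 and 5. It was lowest in PAHSA replicate 4, as Relb was, and highest in PAHSA replicate 1, with a difference of -1.13 (SE 0.67) that was -0.59 without PAHSA replicate 4. Btrc and Fbxw11, which encode the F-box proteins that bind phosphorylated IkB, differed by -0.26 (SE 0.14) and -0.19 (SE 0.21), and the nuclear IkB-like gene Bcl3 by -0.13 (SE 0.15).

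The ubiquitin and adaptor regulators were spread around 0, with 10 negative and 7 positive differences among 17 tested genes (19 listed) and a median of -0.06. Ripk1, the kinase at the tumour necrosis factor receptor, had 5.88, 5.65, 6.02 and 5.86 log2 CPM in PAHSA replicates 1 to 4, against 6.42, 6.17, 6.21 and 6.40 log2 CPM in vehicle replicates 1, 3, 4 and 5. Its groups did not overlap, which was so for 1.95% of all genes with PAHSA lower, at a difference of -0.45 (SE 0.13, limma adjusted p = 0.671). Ripk1 was the only gene of the 17 at an unadjusted p under 0.05, a level that 4.29% of all genes reached with a negative difference. Birc3, which encodes the ubiquitin ligase cIAP2 and is itself an NF-kB target, had a difference of -0.54 (SE 0.28). The log2 difference of Birc3 was -0.11 with the stellate marker mean as a covariate and -0.36 with PAHSA replicate 1 left out. The A20-binding Tax1bp1, the deubiquitinase gene Otulin and Rnf11 differed by 0.15 (SE 0.10), 0.29 (SE 0.21) and 0.11 (SE 0.09). For Rnf11 the groups met at 2 decimals without overlapping, with PAHSA at 7.68 to 7.85 and vehicle at 7.56 to 7.68 log2 CPM. Non-overlapping groups with PAHSA higher were found for 2.06% of all genes.

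Of the ligands and receptors, 17 of 26 listed genes were tested, 10 with negative and 7 with positive differences and a median of -0.01. At an unadjusted limma p under 0.05, 2 were negative and 1 positive, against 4.29% and 3.02% of all genes. Tnf, Lta, Ltb, Il1a and 4 others of this list were not analysed here. Il1r1, the interleukin-1 receptor gene, averaged 8.97 ± 0.24 (SD) over the 4 PAHSA libraries and 9.08 ± 0.07 (SD) over the 4 vehicle libraries on the log2 CPM scale, and its difference was -0.11 (SE 0.12). The kinase gene Irak1 of the same receptor differed by 0.09 (SE 0.11). Cd14, a co-receptor for bacterial lipopolysaccharide, had 3.07, 3.88, 2.99 and 4.41 log2 CPM in PAHSA replicates 1 to 4, against 4.39, 5.28, 5.53 and 4.09 log2 CPM in vehicle replicates 1, 3, 4 and 5. Cd14 differed by -1.23 (SE 0.41) and Cd40, a receptor that feeds both arms of the pathway, by -0.65 (SE 0.28). Tnfrsf11a, which encodes the receptor RANK, went the other way at 0.63 (SE 0.23), with PAHSA at 4.49 to 5.28 and vehicle at 4.03 to 4.48 log2 CPM. These groups did not overlap, which was so for 2.06% of all genes with PAHSA higher. The receptor antagonist gene Il1rn differed by -1.59 (SE 0.76), but the log2 difference of Il1rn was -0.16 with the acinar marker mean as a covariate and -2.48 with the stellate mean. The limma adjusted p was 0.694 for Il1rn and 0.671 for the other named genes Cd14, Cd40 and Tnfrsf11a.

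Transcriptional targets of NF-kB had the lowest median of the lists, -0.50 against -0.01 over all genes, although 0 passed an adjusted p of 0.05. Of 24 tested genes (34 listed) 21 had a negative and 3 a positive difference. The filter left out Cxcl2, Il6, Nos2, Plau and Cd83. At an unadjusted p under 0.05, 9 were negative and 0 positive, against 4.29% and 3.02% of all genes. The 9 include Mmp9 and Lif, named after their values were seen, which passed the filter only through the vehicle libraries. Their PAHSA means were -2.02 and -0.25 log2 CPM, against 3.05 and 2.16 in vehicle. Vcam1, named after its values were seen, likewise passed only through vehicle, at means of -0.57 in PAHSA and 0.90 in vehicle. Mmp9, Lif and Vcam1 also enter the 21 and the median. With a mean log2 CPM above 2 as the filter, 17 of 20 tested targets had a negative difference and 7 of 20 an unadjusted limma p under 0.05. Groups did not overlap for 5 of the 24, all lower in PAHSA, against 1.95% of all genes. They were Zfp36, Ier3 and, named after their values were seen, Mmp9, Bcl2l1 and Ptgs2. For Ier3 the groups met at 2 decimals (5.76 log2 CPM). Ptgs2 was at the lowest value in PAHSA replicate 3. With Mmp9 among them, this count also depends on the filter and was not repeated with the stricter filter. Zfp36, Ier3, Plaur and Icam1 were already known as lower from earlier results of these data, as was Ripk1, so the counts are no independent evidence of a direction. The 9 became 2 with the stellate marker mean as a covariate and 5 without vehicle replicate 1. The stellate markers were lower in PAHSA for 9 of 12. Their mean left out the 2 markers below the filter. It included Col6a1, named after its values were seen, which was at the lowest value in vehicle replicate 4. It also included Dcn, Pdgfra and Rgs5, named after their values were seen, which passed the filter only through the vehicle libraries. Their PAHSA means were -1.49, -1.05 and -1.01 log2 CPM, against 1.19 to 3.21 in vehicle. The stellate mean thus rests partly on genes that were very low in PAHSA libraries. The part of stellate cells in the result was not tested.

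Zfp36, which encodes the mRNA-decay factor tristetraprolin, had 5.58, 5.91, 5.69 and 5.45 log2 CPM in PAHSA replicates 1 to 4, against 6.23, 6.36, 6.2 and 6.04 log2 CPM in vehicle replicates 1, 3, 4 and 5. Its groups did not overlap. Icam1, an adhesion molecule that cytokines induce, had 3.64, 3.45, 4.03 and 4.68 log2 CPM in PAHSA replicates 1 to 4, against 5.27, 6.12, 4.51 and 4.77 log2 CPM in vehicle replicates 1, 3, 4 and 5. Only vehicle replicate 4 reached into the PAHSA range. The early response gene Ier3 and the urokinase receptor gene Plaur averaged 5.36 ± 0.46 and 2.32 ± 0.61 log2 CPM in PAHSA, against 6.23 ± 0.35 and 3.65 ± 0.47 in vehicle (SD, n = 4 each). In contrast Sod2, the mitochondrial superoxide dismutase that NF-kB induces in beta cells, differed by -0.12 (SE 0.14) and Ninj1, which encodes a membrane protein, by -0.05 (SE 0.09). Nfkbia and Tnfaip3 themselves are targets too, and their values above lay inside the vehicle range in 3 and 2 of the 4 PAHSA libraries.

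**Figure D4:**
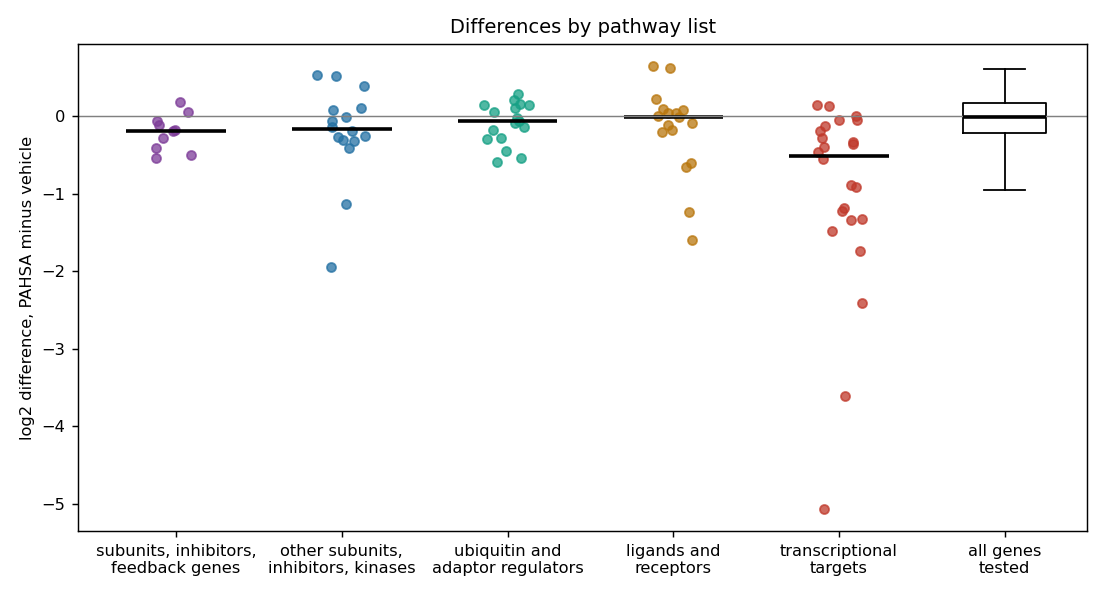
Log2 difference (PAHSA minus vehicle) of each tested gene (points) in 5 pathway lists, with the list median as a black line; the box shows the interquartile range of all genes tested, with whiskers at the 5th and 95th percentile. The 10 subunit, inhibitor and feedback genes lie between -0.54 and 0.19. The lowest target is Mmp9 at -5.07 (SE 1.92), named after its values were seen. Mmp9 was at the lowest value of PAHSA replicates 1 and 2, so its difference depends on the 0.5 counts added before the log.

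**Figure D5:**
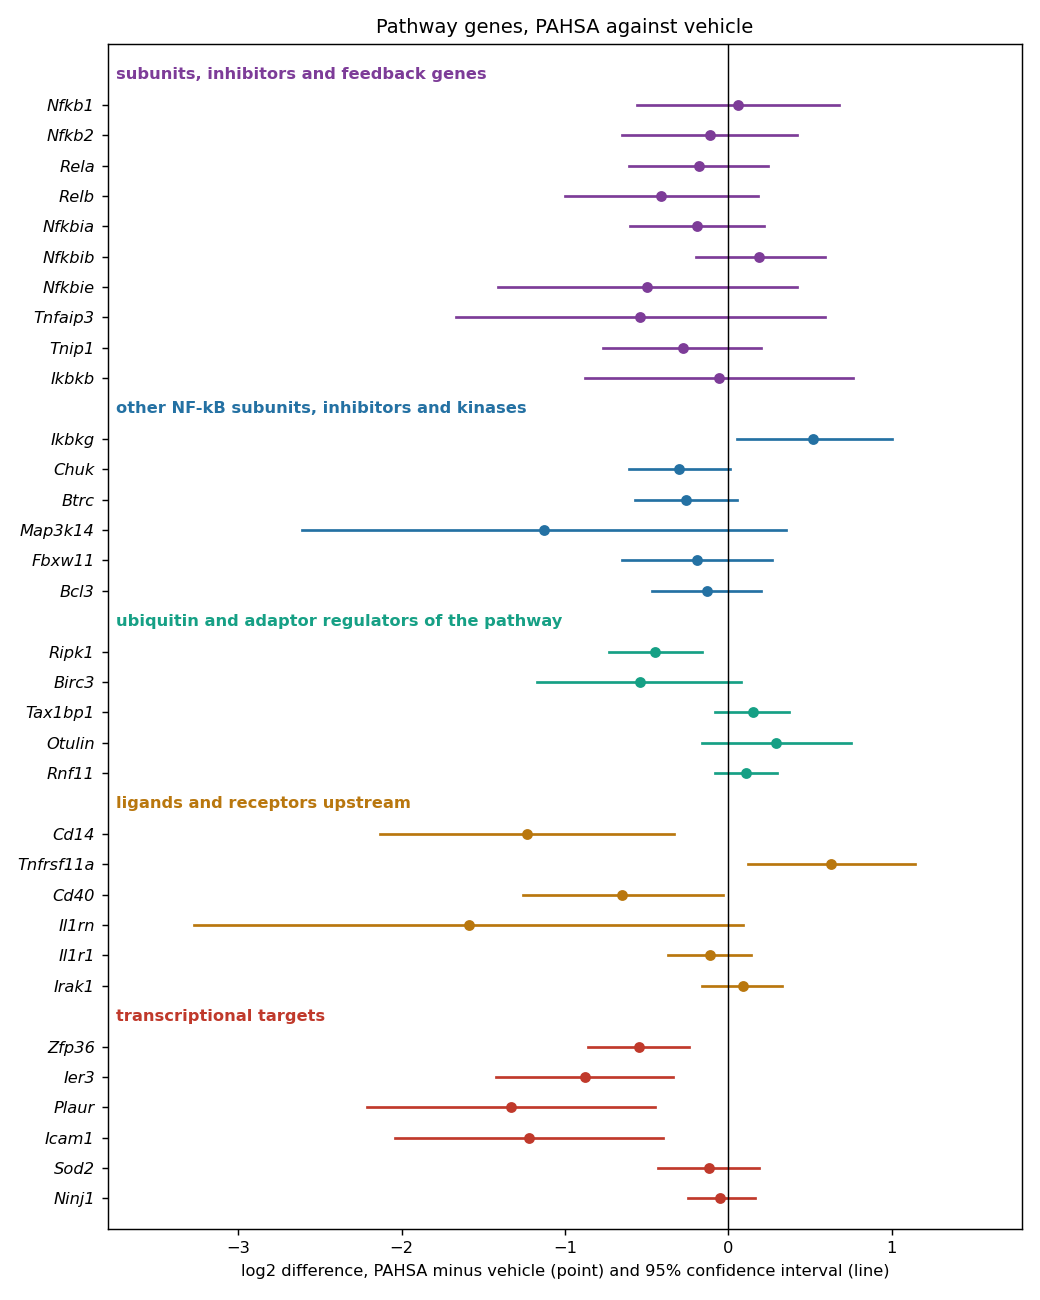
Log2 difference of PAHSA minus vehicle (points) with the 95% confidence interval from limma (lines) for the 10 genes and the named genes of the other lists. All 10 intervals of the first group cross 0. Before adjustment, those of Ikbkg, Ripk1, Cd14, Tnfrsf11a, Cd40, Zfp36, Ier3, Plaur and Icam1 do not. These genes were picked for the smallest p of their lists and the 10 were not, so the contrast between them is no evidence. Of all genes tested, 7.31% had an unadjusted limma p under 0.05.

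The tissue was islet by its markers, with 10 of 10 beta cell markers in the table at a summed 141000 to 176000 CPM in PAHSA and 137000 to 180000 CPM in vehicle. Of these markers 8 were higher and 2 lower on average in PAHSA, among them Ucn3, named after its values were seen, at 7.05 to 7.49 log2 CPM in PAHSA and 6.38 to 6.95 log2 CPM in vehicle. All 25 acinar markers in the table (26 listed) were lower on average in PAHSA, at a summed 604 to 21400 CPM against 14200 to 56500 CPM in vehicle, with PAHSA replicate 4 the lowest. Stellate, fibroblast and pericyte markers (12 of 13 in the table, 9 lower and 3 higher) summed to 41.7 to 148 CPM in PAHSA and 87.2 to 335 CPM in vehicle. Duct markers (10 of 11, 8 lower and 2 higher) summed to 3640 to 4610 CPM in PAHSA and 4410 to 6350 CPM in vehicle. Of the immune lists, 3 of 15 macrophage and dendritic cell markers (Cd68, Cd14 and C1qa, 2 lower and 1 higher) summed to 54.1 to 88.0 CPM in PAHSA and 74.3 to 108 CPM in vehicle. For T, NK and B cells 4 of 16 markers (3 lower and 1 higher) summed to 94.0 to 221 CPM in PAHSA and 118 to 386 CPM in vehicle. Most of it was Cd74, at a mean of 153 CPM in PAHSA and 226 CPM in vehicle, so the sum mainly describes that gene. For endothelial cells 4 of 9 (all lower) summed to 32.7 to 47.5 CPM in PAHSA and 38.4 to 75.3 CPM in vehicle. The other markers, Ptprc, Cd3e and Adgre1 among them, were not analysed here. With the acinar mean as a covariate 4 of the 10 genes had a positive difference. With the macrophage mean 3 of the 10 (Relb, Tnip1 and Ikbkb) had a negative difference at an unadjusted p under 0.05. With the stellate mean the log2 difference of Icam1 was -0.74 (SE 0.37), against -1.22 without a covariate. No fit used the duct, lymphocyte or endothelial markers, whose part in the results was not tested.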

How the data were processed

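RNA was taken with an RNeasy column kit and libraries were made with Nextera XT, per the labels' protocols. The submitters' processing notes name kallisto and limma, without versions; the authors' genome build and annotation were not named there. The deposited values are log2 CPM made by the authors. The repeated lowest value of a column, taken as 0 counts plus 0.5, gave estimated counts of 34461742 to 45236238 per library as a description of depth; 47.8% to 51.5% of them lay within 0.01 of a whole number, so no count test was run. Intervals cover the spread between libraries.

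Symbols came from GENCODE M21 (56 identifiers had none). Genes with a mean log2 CPM above 0 (12231 of 13725, leaving out 1494) were fitted with limma 3.58.1 in R 4.3.3 (lmFit, eBayes with trend), two-sided, group as the only term, with Benjamini-Hochberg adjustment over all genes and a threshold of 0.05. The script was tested on simulated data. Differences are PAHSA minus vehicle, and those of low genes depend on the added 0.5 counts. kallisto divides reads between similar transcripts by a model.

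The 10 genes and all lists were chosen with earlier results of these data known. From each other pathway list the text names the 4 genes with the smallest p and the 2 most abundant. Any gene outside this rule that is given with values is said to be chosen after its values were seen. Alternatives were another added value, filters, scalings, variance models, marker means as covariates, left-out libraries and a replicate block. The numbers 1, 3 and 4 occur in both groups. Library pairs had Pearson correlations of 0.824 to 0.937, so no library was taken as a copy of another.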

Additional observations from a re-analysis of the deposited data

Results flagged for a closer look

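Within groups of 4 libraries, a library was marked when its gap to the nearest other library, as a share of the group's range, passed Dixon's 95% limit. Of 66 groups examined 5 were marked, and chance marks about 1 in 20. Among the 20 groups of the 10 genes 3 were marked, and the share marked over all genes tested was not computed. Relb was at 3.50 log2 CPM in PAHSA replicate 4, where the other PAHSA libraries were at 4.46 to 4.57. Nfkbia was at 5.78 in PAHSA replicate 2, where the others were at 6.47 to 6.51. Nfkb1 was at 3.71 in vehicle replicate 1, where the other vehicle libraries were at 4.36 to 4.46. Outside the 10 genes, Bcl3 was at 6.87 in PAHSA replicate 3 (others 6.48 to 6.54) and Chuk at 6.97 in vehicle replicate 3 (others 6.43 to 6.50).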

How the results depend on the processing

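No gene passed an adjusted p of 0.05 in limma under any of the 21 alternatives run, and the median difference of the 10 genes stayed negative, from -0.31 to -0.13. Of the 10, the number higher in PAHSA (2) was 4 both when the acinar mean was a covariate and without the libraries numbered 4, 1 with the stellate mean, and 1 to 3 when 1 library was left out (1 without PAHSA replicate 2 or 3). At an unadjusted p under 0.05 it was 3 instead of 0 with the macrophage mean as a covariate (Relb at -0.70, Tnip1 at -0.65 and Ikbkb at -0.67), a mean of 3 genes that includes Cd14. The targets at that level (9) numbered 2 with the stellate mean, up to 12 under the others, and 5 to 10 when 1 library was left out, 5 without vehicle replicate 1. This recount was chosen after seeing the data. Signs turned for Nfkb2 (0.11), Ikbkb (0.33) and Fbxw11 (0.10) with the acinar mean, where the log2 difference of Irak1 was -0.0014, for Nfkb1 (-0.13) and Sod2 (0.09) with the stellate mean, for Rela (0.11) with the macrophage mean, for Il1r1 (0.01) under quantile normalization, and for Nfkb2 (0.11), Ikbkb (0.10) and Irak1 (-0.02) without the libraries numbered 4. With 1 library left out, Nfkb1 ranged from -0.11 to 0.23, Nfkb2 from -0.25 to 0.04 and Ikbkb from -0.29 to 0.33. The cause was not tested. Same-numbered libraries of the groups share only a number (correlation of deviations -0.02 for each of the numbers 1, 3 and 4). With the replicate block over these 6 libraries 1 of the 10 genes was higher in PAHSA and Nfkb1 was at -0.07, and without the block, a fit added after seeing the data, the same libraries gave 1 and -0.07. The number of genes past the threshold was 0 in both.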

Other observations

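All genes given here were named after their values were seen. Further NF-kB targets with low values in PAHSA include secreted proteins of inflammation. In the same list Cxcl10 differed by -0.40 (SE 0.43) and Csf1 by -0.19 (SE 0.38), each by less than its SE. Positive differences were those of Nuak2, 0.01 (SE 0.30), Saa3, 0.13 (SE 0.30), and Irf1, 0.15 (SE 0.14). The monocyte chemokine gene Ccl2 had 1.01, 0.32, 0.98 and 2.33 log2 CPM in PAHSA replicates 1 to 4, against 3.22, 3.32, 3.56 and 1.47 log2 CPM in vehicle replicates 1, 3, 4 and 5, a difference of -1.73 (SE 0.60). The neutrophil chemokine gene Cxcl1 had 2.64, 3.58, 3.98 and 3.42 log2 CPM in PAHSA replicates 1 to 4, against 5.19, 5.55, 4.96 and 2.66 log2 CPM in vehicle replicates 1, 3, 4 and 5, a difference of -1.18 (SE 0.57). For both, vehicle replicate 5 lay inside the PAHSA range and the other 3 vehicle libraries lay above it. Lcn2, an iron-binding secreted protein, differed by -0.91 (SE 0.35), and Bcl2l1, which encodes the survival protein Bcl-xL, by -0.28 (SE 0.12), with PAHSA at 5.77 to 5.94 and vehicle at 6.0 to 6.27 log2 CPM. None had a limma adjusted p under 0.05.

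Some targets were at the lowest value of single PAHSA libraries, so their fitted differences depend on the added 0.5 counts. Ptgs2, which encodes cyclooxygenase-2, had 2.23, 1.65 and 3.10 log2 CPM in PAHSA libraries 1, 2 and 4 and lay at the lowest value in PAHSA replicate 3, against 3.33 to 4.13 log2 CPM in vehicle. The matrix protease gene Mmp9 had 1.85 and 2.41 log2 CPM in PAHSA libraries 3 and 4 and lay at the lowest value in replicates 1 and 2, against 2.51 to 4.21 log2 CPM in vehicle. Rel, the gene of the c-Rel subunit, was at the lowest value in PAHSA replicate 4, at 2.04 to 3.03 log2 CPM in the other PAHSA libraries and at 0.92 to 3.63 log2 CPM in vehicle. The interleukin-1 gene Il1b went the other way, at 3.30, 2.33, 3.10 and 2.47 log2 CPM in PAHSA replicates 1 to 4, against 1.58, 2.44, 2.34 and 2.25 log2 CPM in vehicle replicates 1, 3, 4 and 5, a difference of 0.65 (SE 0.39, limma unadjusted p = 0.129).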
